A study of Brassica rapa with 6 samples.

Results

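Circular RNAs (circRNAs) cut from exons or introns of nuclear genes in leaf and petiole of Chinese cabbage (Brassica rapa) made up 311 of the 886 circRNAs in the deposited table. They are the entries of exon type, listed as circRNA, and of intron type, listed as ciRNA. Entries inside a plastid-like block of chromosome A06 (15079018 to 15619492) were left out, among them 12 exon circRNAs. The nearest entries inside the block lay in a photosystem II CP43-like gene (circRNA400) and an atpA gene (circRNA233), and the nearest outside it in MAPK3 (circRNA741) and auxin response factor 2 (circRNA671). Of the 311, 199 were exon circles from 170 genes and 112 were intron circles from 105 genes, and together they came from 271 host genes. All 311 lay inside the annotated span of their host. Leaf and petiole were each sampled with 3 libraries of wild type plants grown in a greenhouse. Total RNA was depleted of ribosomal RNA and made into strand-specific libraries, so that RNA without a poly(A) tail was kept. Plant age and cultivar are not in the labels, and nor is whether each library had plants of its own. P-values therefore cover only the variation among these 6 samples, which could be technical.

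An exon circle forms when the end of an exon is spliced back to the start of the same or an earlier exon, and reads that cross the back-spliced junction count it. Intron circles have another origin. Splicing releases each intron as a lariat, a loop closed at the branch point a short way before the intron's 3′ end, and the lariat debranching enzyme normally opens it for decay. A lariat that escapes this step and loses its tail stays as a circle that runs from the intron's 5′ end to the branch point.

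Most of these circles were rare. The 311 circles had 10942 back-spliced reads over the 6 libraries, with a median of 3 reads per circle, and 280 of them were found in a single library. Only 31 (9.97%) were found in 2 or more libraries, against 70 of the 180 intergenic circRNAs outside the block (38.9%). Those intergenic circRNAs had a median of 8 reads, so the groups also differ in abundance. Exon circles were seen in leaf alone in 74 cases, in petiole alone in 112 and in both tissues in 13. For intron circles the numbers were 56, 48 and 8. Since 1 library decides most of these, presence in 1 tissue is a description of these libraries and not a tissue difference.

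2 circles listed as intron type held most of the reads. ciRNA14 had 5632 and ciRNA16 had 3597, together 84.3% of all reads of the 311 circles, and the other 309 circles shared 1713. The leaf libraries held 978, 1070 and 988 reads of intron circles and 120, 158 and 147 of exon circles. In the petiole libraries these were 2395, 2376 and 2111 reads of intron circles and 181, 208 and 210 of exon circles. Reads were more numerous in every petiole library than in any leaf library for both kinds.

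**Figure D1:**
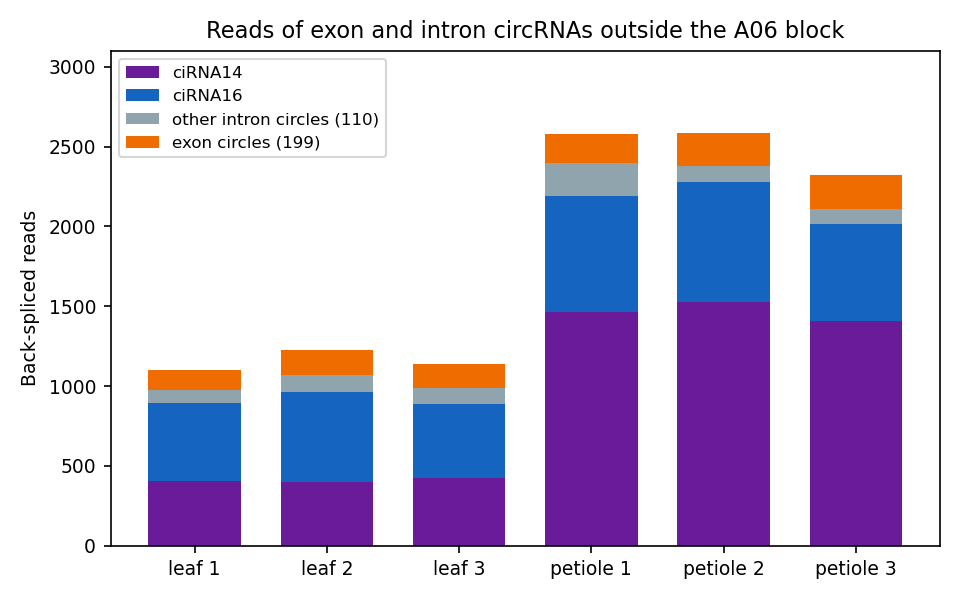
Back-spliced reads of the 311 circles in each library (vertical axis, reads), stacked by circle class. ciRNA14 takes 401 to 425 reads in leaf and 1409 to 1528 in petiole, and the exon circles take 120 to 210 reads in any library.

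The libraries held 111518411 to 132861243 estimated linear counts and 3216 to 4227 back-spliced reads. The A06 block took 1265 to 2313 of these reads in leaf and 25 to 69 in petiole, so that shares are given here of the 1785 to 3593 reads outside it. A tissue check on linear genes gave 27 of 28 tested mesophyll markers (Rubisco small chain and chlorophyll a-b binding proteins) lower in petiole. Their summed level was 8661 to 9024 CPM (counts per 1000000, TMM-normalized) in leaf and 548 to 598 CPM in petiole, and 0 of the 31 listed were at 0 in all libraries. Of 18 tested vascular markers 6 were higher and 8 lower in petiole, with summed levels of 492 to 509 and 304 to 318 CPM, and 9 of the 32 listed were at 0. Of 11 tested guard cell and epidermis markers 3 were higher and 6 lower, with sums of 262 to 270 and 70.5 to 83.9 CPM and 0 of 13 at 0. In bulk tissue, fewer cells of a type and less RNA per cell cannot be told apart.

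Most intron circles ran from the 5′ end of an intron to a point shortly before its 3′ end. For 89 of the 112 the authors list an intron longer than the circle. All 89 began at its 5′ end, which may be a criterion of the caller, whose name is not given in the sources used here. Whether the caller also limits the other end is not known. That end stopped short of the intron's 3′ end by a median of 29 bases (interquartile range 23 to 78, range 6 to 2474). All 89 circles lay on the strand of their host. Of these, 58 (65.2%) ended 15 to 45 bases before the intron's 3′ end, 4 nearer to it and 27 farther away, 19 of them by 100 bases or more. The 58 circles had a median length of 265 bases in introns with a median of 299.5 bases, and the 27 had 156 bases in introns of 358 bases. These 89 circles were thinly counted, with 246 reads in all, a median of 2 reads each, and only 3 found in more than 1 library.

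**Figure D2:**
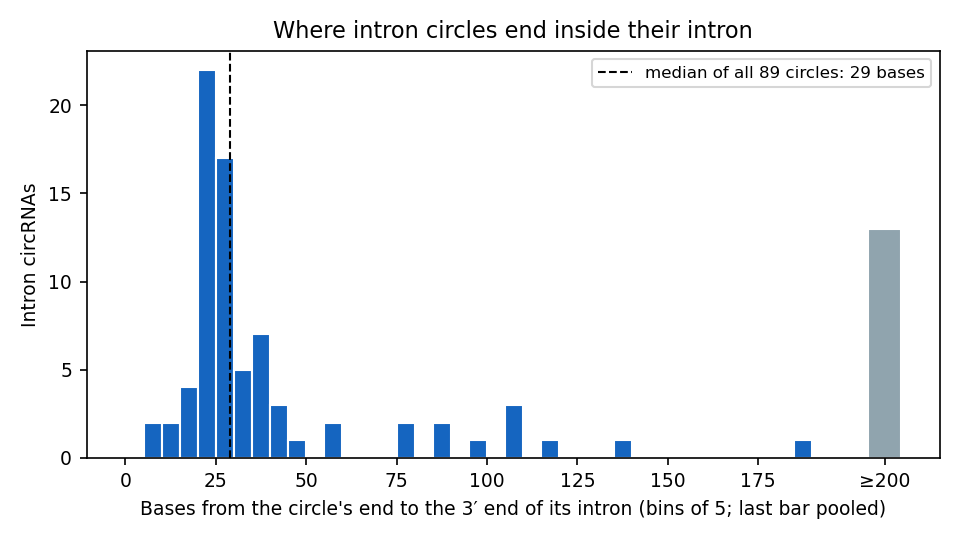
Distance in bases from the end of each intron circle to the 3′ end of its intron (horizontal axis) for the 89 circles that stop short of it, with the number of circles per 5-base bin on the vertical axis and the last bar pooling all at 200 or more. The dashed line marks the median of 29 bases, beside the tallest bars.

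Among the 89 was ciRNA76 of annexin D1, a calcium-dependent membrane-binding protein, with 1 read in each of petiole libraries 1 and 3 and 0 in the other four libraries. ciRNA38, of an RNA-binding protein cabeza-like gene (BraA05g039960.3C), had 1 read in leaf library 2 and 6 in petiole library 3. ciRNA44 in a thioredoxin H gene (BraA09g019570.3C), a redox protein of the cytosol, was the only one of the 89 found in at least 3 libraries, with 0, 0 and 2 reads in the leaf libraries and 1, 0 and 8 in the petiole ones. The shortest intron circles measured 117 bases, ciRNA23 in PIF5, a light-signalling transcription factor, and ciRNA39 in the auxin transport protein BIG, each with 1 read.

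For the other 23 circles of intron type the listed interval only repeats the coordinates of the circle. The same holds for 33 exon circles, among them circles of a 1-exon gene, so that this entry shows no annotated intron. These 23 circles are intron circles by the authors' type alone, and 8 of them lay on the strand opposite to their host. They held 9672 of the 9918 reads of intron type, most of them from ciRNA14 and ciRNA16.

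ciRNA14 is 1047 bases long and lies at A06 1394381 to 1395427, on the plus strand, within the gene BraA06g002280.3C (A06 1378755 to 1401877, 24 exons), which encodes an uncharacterized protein. It had 407, 401 and 425 reads in the leaf libraries and 1462, 1528 and 1409 in petiole, 411 ± 12.5 against 1466 ± 59.6 (SD, n = 3). All petiole libraries stood above all leaf libraries. Of all circRNAs, 57 had reads in 3 or more libraries and were tested. ciRNA14 was the only one called, 1.75% of those tested. Its log2 change was 1.33 (SE 0.10; edgeR quasi-likelihood test, adjusted p = 0.000129). With the library sizes that the deposited normalized signal (SRPBM) implies, it was 2.51. The edgeR adjusted p rose to 0.241 without leaf library 2, 0.0620 without petiole library 1 and 0.0955 without petiole library 3, with log2 fold changes of 1.44, 1.58 and 1.55.

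The linear transcripts of the same gene rose as well. BraA06g002280.3C stood at 429 ± 48.1 CPM in leaf and 982 ± 52.2 CPM in petiole (SD, n = 3), which is a log2 change of 1.19 (SE 0.08; edgeR adjusted p = 5.61e-06). For each 1000 linear counts of the gene, ciRNA14 had 13.8, 11.5 and 15.8 back-spliced reads in leaf and 13.5, 16.7 and 15.8 in petiole. The log2 ratio of circle to linear counts was higher in petiole by 0.17, and the tissues overlapped (two-sided exact permutation test, p = 0.5, where 3 against 3 libraries cannot go below 0.1). However, 13 assembled isoforms that overlap the circle held 74.0% to 82.7% of those linear counts in leaf and 86.1% to 87.9% in petiole. Whether they hold reads of the circle itself was not tested. Set against the annotated transcript alone, a choice made after the values were seen, ciRNA14 had 63.5, 68.7 and 63.4 reads per 1000 counts in leaf and 112, 120 and 119 in petiole, with no overlap. That log2 ratio was higher in petiole by 0.84 (two-sided exact permutation test, p = 0.1, the smallest possible).

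circRNA12, an exon circle of 486 bases, ends at the same base as ciRNA14 (A06 1394942 to 1395427) and begins 561 bases inside it. Introns are listed on both sides of circRNA12, so that ciRNA14 covers a whole exon and 561 bases of the intron before it. The coordinates of ciRNA14 thus go against its listed type, and it is not a circle of 1 annotated intron. circRNA12 had 9, 0 and 15 reads in leaf and 0 in all petiole libraries, where ciRNA14 was most abundant. The intron before it measures 7887 bases, the longest among the exon circles with both ends at introns. In petiole, a count of 0 allows up to 0.0835% to 0.0902% of the reads outside the block, for counting error only.

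ciRNA16 measures 3370 bases (A04 20895497 to 20898866, minus strand) and lies in BraA04g030560.3C (A04 20893040 to 20899761, 10 exons), which has no protein name. It had 484, 564 and 462 reads in the leaf libraries and 728, 753 and 606 in the petiole ones, 503 ± 53.7 against 696 ± 78.7 (SD, n = 3). Raw reads did not overlap between tissues, but the log2 fold change after TMM normalization was -0.03 (SE 0.13; edgeR adjusted p = 0.986). Its sign depended on the scaling: it was 0.32 (adjusted p = 0.226) with linear library sizes and 1.14 (adjusted p = 0.0234, edgeR) with SRPBM library sizes. Against the linear counts of its gene it had 86.1, 89.0 and 82.1 reads per 1000 in leaf and 79.6, 92.4 and 76.8 in petiole. The log2 ratio differed by -0.05 (two-sided exact permutation test, p = 0.7). These linear counts came almost wholly from 4 assembled isoforms that overlap the circle, with 99.7% to 100% of them in each library. The annotated transcript was at 0 in 5 of the 6 libraries and at 20 counts in leaf library 2. A ratio to it was therefore not taken. Whether the isoforms hold reads of the circle itself was not tested. A longer intron circle, ciRNA40 (5243 bases), shares the 5′ end of ciRNA16 and runs 1873 bases past it. It had 0, 21 and 13 reads in the leaf libraries and 29, 25 and 33 in the petiole ones, all petiole values above all leaf values. It was not called (log2 fold change 0.91, SE 1.84; edgeR adjusted p = 0.986).

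**Figure D3:**
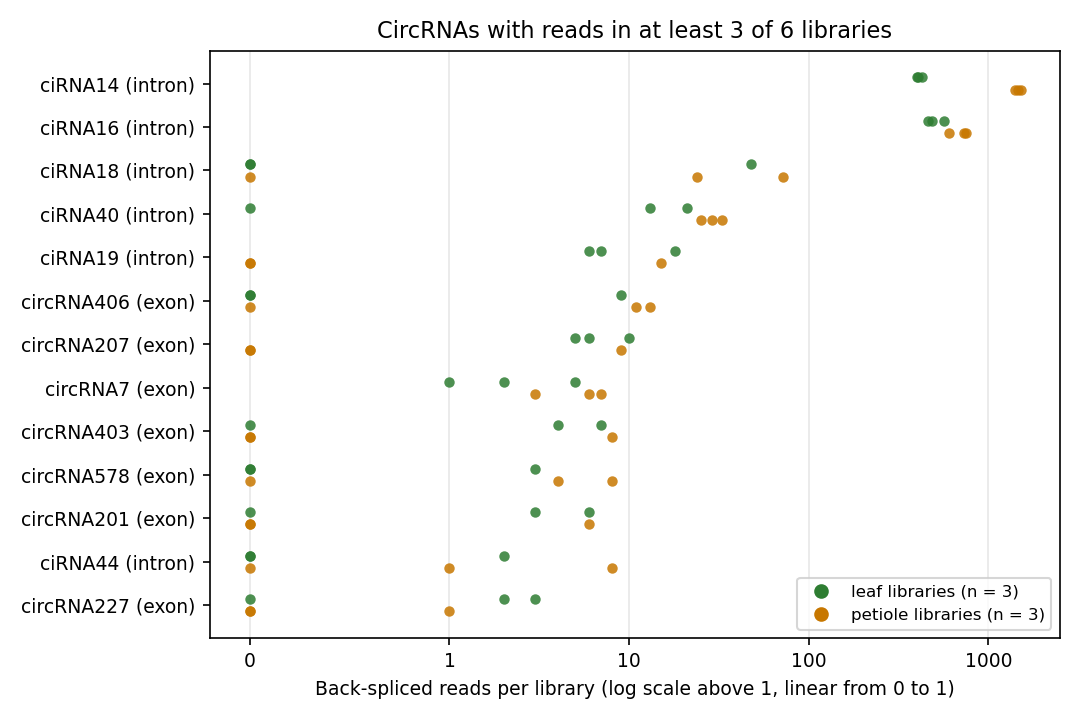
Back-spliced reads in each library (horizontal axis, logarithmic above 1) of the 13 circles with reads in at least 3 of the 6 libraries, one row per circle, leaf points above petiole points. Tissues are apart for ciRNA14 (401 to 425 against 1409 to 1528), ciRNA16 and ciRNA40, and overlap in the other rows.

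Exon circles were built mainly from few exons. The authors list 1 exon for 110 of the 199, 2 for 55, 3 for 19 and 4 for 8, and the other 7 hold 5 to 15. The median length was 238 bases (interquartile range 172 to 409.5) against 195 bases for intron circles. In 85 exon circles both ends met the boundary of a listed flanking intron within 1 base, and all 85 lay on the strand of the host. Another 26, also on the strand of the host, met it at 1 end. Of the remaining exon circles, 20 met no boundary, 33 had an intron listed elsewhere in the gene, 33 had their own coordinates listed as the intron, and 2 lacked an intron on 1 side. The first 3 of these classes held 10, 17 and 24 circles opposite to their host, which are all 51 opposite exon circles. The 85 with both ends at introns circles had a median length of 395 bases, and 36 of them held 1 exon, 23 held 2 and 12 held 3. Their flanking introns were short, with medians of 83 bases upstream (interquartile range 75 to 179) and 94 bases downstream (80 to 160). The class was rarely recurrent, with 312 reads in all, and 8 of the 85 were found in 2 or more libraries. The geometric classes were drawn up after the tables were seen.

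The highest exon number was 15, in circRNA204 (3834 bases), from a gene without a protein name (BraA05g042220.3C, 20 exons), with 6 reads in leaf library 1 and 0 elsewhere. It was followed by circRNA717 with 13 exons in golgin candidate 1, a Golgi tether, with 1 read. circRNA6 held 9 exons of DNA ligase 4, which joins broken DNA ends, and also had 1 read. The longest circle was circRNA597 (7002 bases, 9 exons), in the disease resistance gene RML1A-like, with 6 reads in petiole library 1. The shortest was circRNA733 (111 bases), in a regulatory-associated protein of TOR 1-like gene, a partner of the growth-controlling TOR kinase, with 4 reads in petiole library 3.

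The exon circle seen in all 6 libraries came from a chaperone. circRNA7 (153 bases, A02 4552333 to 4552485), in the chaperone protein dnaJ 3 gene (BraA02g009550.3C), had 2, 1 and 5 reads in the leaf libraries and 3, 6 and 7 in the petiole ones. It lies at the very edge of the gene and has an intron on only 1 side. Its log2 fold change was 0.46 (SE 1.21; edgeR adjusted p = 0.986), while the linear gene differed by 0.13 (SE 0.04; adjusted p = 0.0161). circRNA201 (2 exons, 423 bases) in PHO1 homolog 8-like, of a family of phosphate exporters, had 3, 6 and 0 reads in the leaf libraries and 6, 0 and 0 in the petiole ones, and its linear host fell by 0.98 on the log2 scale in petiole (SE 0.04; edgeR adjusted p = 5.45e-07). circRNA227 in HOS1, a ubiquitin ligase of cold signalling and flowering, had 0, 2 and 3 reads in the leaf libraries and 0, 1 and 0 in the petiole ones, and its linear host fell by 0.44 (SE 0.07; adjusted p = 0.000700). Neither circle was called.

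The other circles among the 10 with the most reads were less even. circRNA425 (3 exons, 2633 bases), in an aspartyl protease gene (BraA10g027200.3C), had 29 reads in leaf library 3 and 0 in the other five libraries. Its linear host was expressed in every leaf library, at 70.8 ± 3.88 CPM, and fell to 2.56 ± 0.216 CPM in petiole (SD, n = 3). Reads of this circle thus came from 1 of 3 libraries with a like level of the host.

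A pair of genes for repetitive cell wall proteins carried 32 of the circles, and all 32 lay on the strand opposite to the gene. Extensins are hydroxyproline-rich glycoproteins that are cross-linked into the wall. The extensin-2-like gene (BraA04g030500.3C, A04 20854746 to 20858530, minus strand) held 17 circles, 12 listed as exon and 5 as intron, with 364 reads. The cell wall-plasma membrane linker protein gene (BraA05g025150.3C, A05 18909098 to 18910228, plus strand, 1 exon) held 15 exon circles with 143 reads. Of the other hosts, 10 had 2 circles and 259 had 1.

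These circles overlapped one another heavily. In the extensin-2-like gene 16 of 17 overlapped another circle, 6 shared a start and 4 shared an end. In the linker protein gene all 15 overlapped within 562 bases, and 12 shared an end with another. Lengths ran from 138 to 2861 bases in the first gene, 16 of 17 under 400, and from 141 to 306 in the second. They were multiples of 3 bases in 14 of 17 and 8 of 15 circles, against 105 of the 252 circles on the strand of their host (41.7%). Since the circles overlap and share ends, they are not independent of each other.

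**Figure D4:**
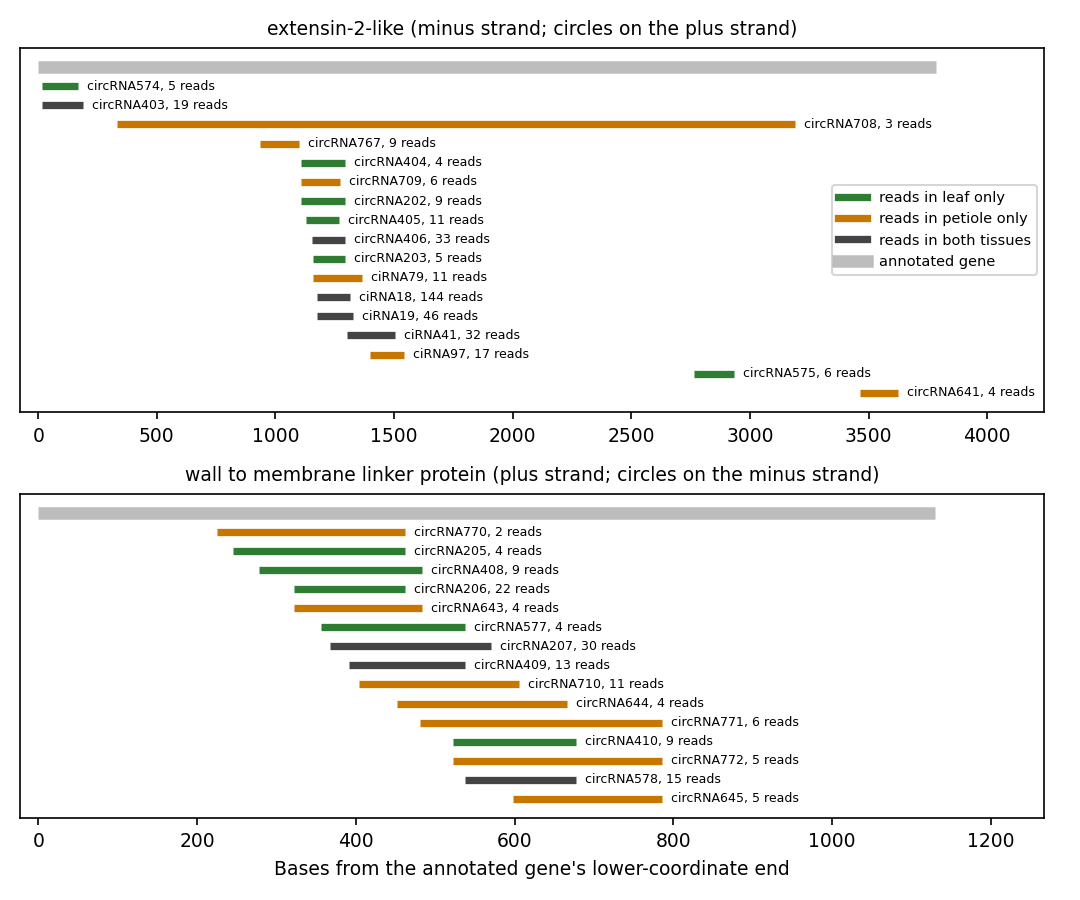
Circles over the extensin-2-like gene (upper panel) and the cell wall-plasma membrane linker protein gene (lower panel), each drawn to scale in bases from the lower-coordinate end of the annotated gene (grey bar) and coloured by the tissue with reads. Most extensin circles pile up between 1106 and 1543 bases, and the linker protein circles lie between 225 and 786 bases.

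Reads over these genes shifted from circle to circle between libraries. ciRNA18 (141 bases) had 48, 0 and 0 reads in the leaf libraries and 72, 0 and 24 in the petiole ones. ciRNA19 starts at the same base, is 151 bases long, and had 7, 18 and 6 reads in the leaf libraries and 15, 0 and 0 in the petiole ones. ciRNA41 had 0, 13 and 0 in leaf and 19, 0 and 0 in petiole. No order of the tissues was visible in any of the 3.

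Summed over its circles, the extensin-2-like gene had 69, 59 and 24 reads in the leaf libraries and 142, 37 and 33 in the petiole ones. The linker protein gene had 24, 41 and 13 in leaf and 21, 18 and 26 in petiole. Tissues overlapped for both genes. The most recurrent circle of the linker protein gene, circRNA207, had 5, 10 and 6 reads in the leaf libraries and 0, 0 and 9 in the petiole ones. circRNA406 of the extensin-2-like gene had 0, 9 and 0 in leaf and 13, 11 and 0 in petiole, circRNA403 had 0, 4 and 7 and then 8, 0 and 0, and circRNA578 of the linker protein gene had 0, 0 and 3 and then 8, 0 and 4. With ciRNA14 and ciRNA16 set aside, the 11 other tested circles had log2 fold changes from -2.39 to 1.54, standard errors from 1.21 to 2.68 and edgeR adjusted p-values of 0.981 to 0.986. None was called, and 0 of the 11 had an unadjusted p under 0.05. Differences of the size seen in ciRNA14 were within the error of these circles.

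Both wall genes were strongly expressed as linear RNA. The linker protein gene stood at 4303 ± 125 CPM in leaf and 3955 ± 93.6 CPM in petiole (SD, n = 3), which is a log2 change of -0.12 (SE 0.03; edgeR adjusted p = 0.0122), on the annotated strand. Assembled transcripts on the opposite strand, that of the circles, held 13572 to 24737 counts in leaf against 289436 to 322725 for the gene, and 19385 to 28196 against 369944 to 400254 in petiole. For the extensin-2-like gene the opposite strand held 34173 to 55567 counts in leaf and 27910 to 46557 in petiole. Its own value ranged from 138871 to 215046 in leaf and 61722 to 208459 in petiole and came from assembled isoforms, the annotated transcript having 0 to 59 counts. Its change was not called (log2 fold change -0.92, SE 0.39; edgeR adjusted p = 0.0747). How the authors set the strand of a circle is not given in the sources used here.

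In all, 59 circles with 654 reads lay opposite to their host, in 28 genes. By description, 8 hosts were extensins, proline-rich or glycine-rich proteins or the linker protein, a group named after its values were seen, and they held 37 of the 59 opposite circles. Besides the pair above these were extensin-3, extensin-3-like, a second extensin-2-like gene, a leucine-rich repeat extensin-like gene and a 36.4 kDa proline-rich protein, each with 1 opposite circle of 144 to 159 bases. The glycine-rich protein DOT1, by contrast, had 2 circles on its own strand, both in petiole library 3. Several of these linear genes were higher in petiole: DOT1 by 3.18 (SE 0.15), extensin-3 by 2.78 (SE 0.06) and extensin-3-like by 1.58 (SE 0.07) on the log2 scale (edgeR adjusted p = 6.25e-07, 1.94e-08 and 4.37e-07). The remaining 22 opposite circles lay in other genes, such as gibberellin-regulated protein 14-like, with 2 circles of 9 and 7 reads in petiole libraries 1 and 2, and the trichome regulator TRANSPARENT TESTA GLABRA 1, with 4 reads in leaf library 1.

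Host genes were highly expressed and rich in exons. The median host level was 17.3 FPKM (fragments scaled to transcript length and library size) over the 6 libraries, against 4.68 FPKM for all 27984 tested genes. Of the 271 hosts, 234 (86.3%) stood above that median, and 105 (38.7%) stood above 28.9 FPKM, the 90th percentile of those genes. Hosts had a median of 8 exons and 1425 bases, against 4 exons and 1110 bases. The 19 hosts with a same-strand circle in 2 or more libraries had a median of 54.8 FPKM, and the 224 whose circle was seen in 1 library had 15.1 FPKM. Hosts were found by circle reads from these same libraries, and intron circles need a gene with introns. These contrasts are thus descriptions with no test. High levels alone did not bring many circle reads. Peroxidase 42, at 4125 FPKM the highest of the hosts, had a circle with 2 reads, and the translationally-controlled tumor protein homolog, at 2425 FPKM, one with 3.

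Most hosts differed between the tissues as linear RNA, as most genes did. Of 270 tested hosts, 103 were higher and 95 lower in petiole (73.3% called; edgeR adjusted p below 0.05), against 62.4% of all 27984 tested genes, 31.4% higher and 31% lower. The median log2 fold change was 0.04 in hosts and 0.01 in all genes. With log2(FPKM + 1) values, on which the median over all genes lay 0.48 toward petiole, limma called 201 hosts higher and 41 lower. Directions below are relative to the bulk of genes.

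Circles tended to be found in the tissue where the host was more expressed. Of 114 tested hosts whose circles were seen in leaf alone, 25 were higher and 56 lower in petiole (edgeR), with a median log2 fold change of -0.27. Of the 140 hosts with circles seen in petiole alone, 74 were higher and 33 lower, with a median of 0.32. For the 16 hosts with circles in both tissues the numbers were 4 and 6, with a median of -0.07. Exon hosts gave 13 higher and 33 lower for leaf circles and 49 and 27 for petiole circles, and intron hosts gave 12 and 23 and then 24 and 6. Circle and linear reads come from the same libraries, and petiole libraries held more reads outside the block, so these are descriptions with no test.

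**Figure D5:**
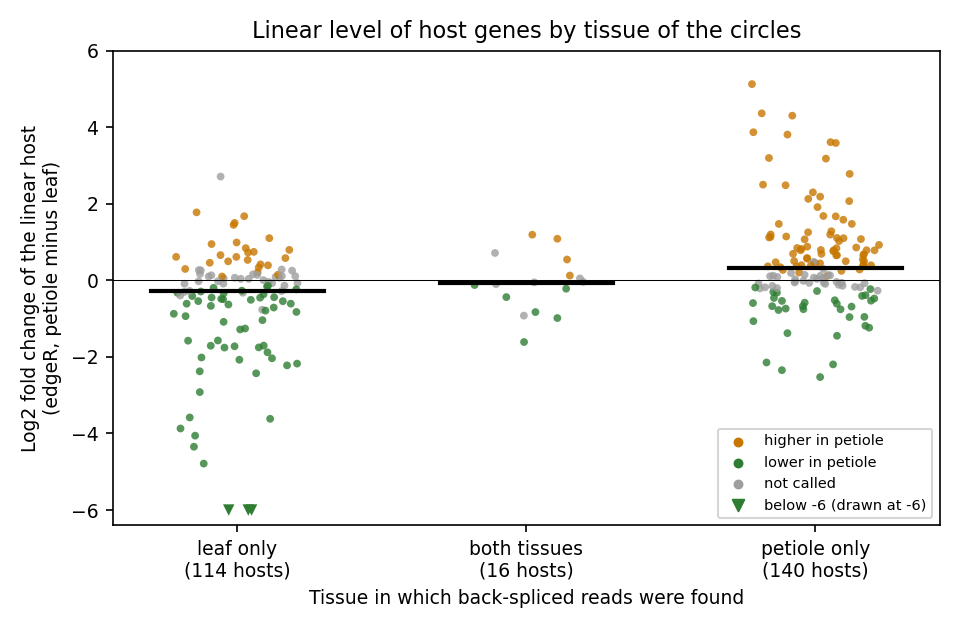
Log2 fold change of the linear host gene between petiole and leaf (vertical axis; edgeR), each point a tested host, grouped by the tissue in which its circles had reads; black lines are medians and triangles stand for values below the axis. Medians are -0.27 for the 114 hosts with circles in leaf alone and 0.32 for the 140 with circles in petiole alone.

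Hosts named for photosynthesis or the plastid were the group most shifted. Of 22 such hosts 19 fell in petiole and 1 rose (edgeR), with a median log2 fold change of -1.82. Among all 1676 tested genes with these words 1080 fell and 245 rose, with a median of -0.98. The mesophyll markers given above moved in the same direction, and their part in this was not tested. Circles of 15 of the 22 were seen in leaf alone, and 14 of these hosts fell. Rubisco activase, which keeps Rubisco active, went from 948 ± 36.8 to 57.0 ± 5.87 CPM in petiole (log2 fold change -4.06, SE 0.08; edgeR adjusted p = 1.07e-08), and its exon circle had 2 reads, in leaf. The plastid ribosome factor PSRP1 fell from 223 ± 1.69 to 15.3 ± 1.79 CPM. PsbS, the photosystem II 22 kDa protein that dissipates excess light, fell by 3.58 on the log2 scale (SE 0.12; adjusted p = 1.37e-07). PGR5-like protein 1B, of cyclic electron flow, fell by 1.88 (SE 0.04; adjusted p = 1.87e-08) and had a circle with 6 reads in leaf library 2. A plastid-group circle could also be seen in the other tissue: those of the ribosome-recycling factor and of an alpha-glucan water dikinase 1 gene, which starts starch breakdown, had 3 reads each in petiole, where the hosts were lower by 2.53 (SE 0.07; adjusted p = 4.92e-08) and 2.15 (SE 0.05; adjusted p = 1.51e-08).

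Linear RNA of a further pair was listed at 0 in petiole. A short-chain dehydrogenase TIC 32-like gene (BraA03g000760.3C), of the plastid import machinery, stood at 16.1 ± 0.936 CPM in leaf (SD, n = 3), at least 1580-fold lower in petiole (edgeR adjusted p = 4.93e-07). FKBP13, a protein folding enzyme of the thylakoid lumen, stood at 7.31 ± 0.932 CPM, at least 717-fold lower (adjusted p = 4.10e-06). The bounds take 3 counts over the 3 petiole libraries as the floor, and do not apply if the 0 is a failed estimate. Their circles had 6 and 3 reads, in leaf alone.

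The 5 largest rises among hosts with a protein name were in genes of varied function. TSK-associating protein 1-like rose from 6.34 ± 1.57 to 222 ± 20.4 CPM (SD, n = 3), which is a log2 change of 5.13 (SE 0.18; edgeR adjusted p = 1.48e-07). The jasmonate repressor TIFY 11A-like rose from 13.3 ± 3.07 to 274 ± 3.18 CPM (4.37, SE 0.16; adjusted p = 1.84e-07). A beta-D-glucopyranosyl abscisate beta-glucosidase-like gene, whose named activity frees abscisic acid from its glucose ester, rose from 89.1 ± 16 to 1760 ± 199 CPM (4.30, SE 0.15; adjusted p = 1.47e-07). 1-aminocyclopropane-1-carboxylate oxidase 5-like, of the last step of ethylene synthesis, rose from 1.19 ± 0.663 to 17.4 ± 2.29 CPM (3.87, SE 0.38; adjusted p = 4.92e-05). Annexin D1 rose from 70.1 ± 4.13 to 984 ± 22.7 CPM (3.81, SE 0.05; adjusted p = 2.52e-09). Circles of all 5 were seen in petiole alone, with 1 to 4 reads in 4 of them. The glucosidase gene had 2 circles with 24 reads: circRNA674 had 9 and 4 reads in petiole libraries 2 and 3, and ciRNA93, on the opposite strand, had 11 in library 2.

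The other functional groups of hosts are given beside all tested genes of the same words. Words in the description alone define them, and a host may count in more than 1 group. Of 21 kinase and phosphatase hosts 7 rose and 9 fell, and the median log2 change was -0.14, and all 1814 such genes gave 602 and 620 (edgeR). Among 19 hosts of protein turnover 4 rose and 11 fell (median -0.19), against 331 and 426 of all 1220. Of 13 hosts of transcription and chromatin 4 rose and 6 fell (-0.27), against 460 and 621 of 1730. Words for transport matched 12 hosts, of which 4 rose and 5 fell (0.01), against 376 and 265 of 891. Not all of these are transport genes. The match took in an acyl-carrier-protein synthase, an acyl carrier protein thioesterase and genes of 26S proteasome non-ATPase regulatory subunit 6. Of 7 translation hosts 4 rose and 0 fell (0.39), against 309 and 179 of 716. Of 4 RNA handling hosts 0 rose and 2 fell (-1.06), against 92 and 151 of 453. The 2 that fell are also among the 22 plastid hosts. They are a chloroplastic 31 kDa ribonucleoprotein (-2.07) and the chloroplastic DEAD-box RNA helicase 3 (-2.38). These small groups were not tested against all genes. Hosts that share a description, namely 2 genes each for 26S proteasome regulatory subunit 6, alpha-glucan water dikinase 1 and extensin-2-like, may share reads with a close copy, and their circles are uncertain to that extent.

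No gene of the splicing list, which goes by words in the description, was a host. Of all 27984 tested genes only 270 were hosts, so a list of 114 tested genes would hold few at that share. The absence is thus not a result about splicing genes. The words of the list do not cover all of splicing. Hosts outside the list included sm-like protein LSM3A, with 6 circle reads in leaf library 3. A serine/arginine repetitive matrix protein 1-like gene, with 1 read in leaf library 3, was another. Of 136 genes on the list 114 were tested, and 14 were higher and 41 lower in petiole (edgeR), with a median log2 fold change of -0.12. Of all tested genes 31.4% were higher and 31% lower. The lariat debranching enzyme gene BraA08g017330.3C stood at 21.1, 17.6 and 17.9 CPM in leaf and 21.3, 26.5 and 23.6 in petiole, and rose by 0.33 (SE 0.11; edgeR adjusted p = 0.0342). A debranching enzyme-like gene (BraA03g056940.3C) stood at 7.89, 7.49 and 8.97 CPM in leaf and 8.61, 8.05 and 8.73 in petiole, a difference of 0.06 (SE 0.13; adjusted p = 0.705).

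More exon circles were counted in petiole than in leaf within each same-numbered pair of libraries. The exact permutation test of 3 against 3 libraries cannot go below p = 0.1. In leaf 29, 38 and 30 exon circles had a read and in petiole 38, 45 and 51, 32.3 ± 4.93 against 44.7 ± 6.51 (SD, n = 3). The tissues touched at 38 (two-sided exact permutation test, p = 0.2). The same-numbered pairs differed by 9, 7 and 21 (exact sign-flip permutation, p = 0.25, the smallest that 3 pairs allow). Circles with at least 2 reads numbered 24, 31 and 27 in leaf and 34, 40 and 41 in petiole, with no overlap (two-sided exact permutation test, p = 0.1, the smallest possible). Circles found in at least 2 libraries numbered 8, 10 and 8 in leaf and 10, 8 and 9 in petiole, with pairs of either sign. With each library thinned to 1785 reads outside the block, the means were 32.1 and 39. Intron circles numbered 19, 25 and 28 in leaf and 22, 22 and 21 in petiole and overlapped (p = 0.5, exact permutation).

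As a share of reads outside the block, exon circles took 6.72%, 8.10% and 7.68% in leaf and 5.04%, 6.04% and 6.31% in petiole. The shares did not overlap (two-sided exact permutation test, p = 0.1, the smallest possible). All shares here are of a total that holds ciRNA14, at 401 to 425 reads in leaf and 1409 to 1528 in petiole. The greater number of ciRNA14 reads alone lowers the exon share in petiole, and exon shares of a total without it were not taken. The lower petiole share thus cannot be read as a tissue difference in exon circles. Without circles on the opposite strand the means were 4.04% and 3.97% and the tissues overlapped (exact permutation p = 0.9), and per 1000000 linear counts exon circles were higher in petiole (1.22 ± 0.154 against 1.57 ± 0.190 reads; SD, n = 3). Intron circles took 54.8%, 54.8% and 51.6% in leaf and 66.7%, 68.9% and 63.5% in petiole (exact permutation p = 0.1). ciRNA14 was then taken out of the intron reads but left in the total. The shares became 32%, 34.3% and 29.4% in leaf and 26.0%, 24.6% and 21.1% in petiole, so that 1 circle decided the higher share in petiole. These lower values cannot be read as a reversal, since the reads of ciRNA14 still swell the petiole total. The 89 circles that end short of a listed intron took 2.39% ± 1.15 in leaf and 1.05% ± 0.258 in petiole (SD, n = 3), and the tissues overlapped (exact permutation p = 0.3).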

How the data were processed

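Whole-transcriptome libraries of leaf and petiole (3 each, grouped by title) were compared. The members and gene lists were chosen with earlier results of these data known. The authors deposited back-spliced read counts per circRNA, a type, a position, a host gene and the listed introns, and SRPBM, a signal in which each library's values are the count times 1 constant. They also deposited estimated counts and FPKM per linear isoform, per the file headers, with exon numbers and lengths as other columns. The estimated counts are whole numbers, so none was rounded, and an FPKM of 0.0001 at a count of 0 was set to 0. The submitters' processing notes name HISAT2, StringTie and TopHat, with no versions or roles. Neither the caller of the circRNAs nor the build is given in the sources used here. Coordinates are those of the files, and no sequence was read.

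Gene values are sums over isoforms that match, share a junction with or lie within the annotated gene. CircRNAs read in 3 or more libraries, and genes with a mean of at least 10 counts, were tested with edgeR 4.0.16 in R 4.3.3. The test was a quasi-likelihood F test of petiole against leaf after TMM. Benjamini-Hochberg ran over the whole table, and calls were made at adjusted p below 0.05. The test was also run on simulated data, where a pass mark was set for genes only and not for circRNAs. Total back-spliced reads served as circRNA library sizes. CPM are TMM-normalized counts per 1000000. Per-library values were compared by exact permutation in SciPy 1.17.1. Ratios were taken for circles with at least 10 reads in every library. Circle and host strands and listed introns were compared within 1 base. Alternatives used DESeq2 1.42.0 and limma 3.58.1. A count of 0 allows up to 3 counts, or 0.0835% to 0.168% of the reads outside the block, for counting error only.

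Named are circles with reads in at least 3 libraries, the 10 with the most reads, hosts of at least 3 circles, called circles, the highest exon number and extreme lengths, the called hosts with the 5 largest rises and the 5 largest falls among those with a protein name, both debranching enzyme genes, and host groups by words in their descriptions. Others named were chosen after their values were seen.

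Replicate numbers occur in both tissues. Deviations of same-numbered libraries from their tissue means correlated across the 57 tested circRNAs at 0.277, 0.231 and 0.227 for numbers 1, 2 and 3. All were above 0.1, so pairs of same-numbered libraries were used in alternatives for circRNAs. The main tests were unpaired. Linear genes of the same 6 libraries gave -0.00203, 0.00562 and -0.000837, so whether the libraries are paired is not settled. Exact sign flips within pairs, and the intron circles that end short of a listed intron taken alone, were alternatives added after the data were seen.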

Additional observations from a re-analysis of the deposited data

How the results depend on the processing

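ciRNA14 was higher in petiole in all 14 alternatives, with log2 fold changes of 1.16 (DESeq2) to 2.51 (SRPBM), and 1.22 to 1.70 when 1 library was left out, where edgeR adjusted p-values ran from 0.000447 to 0.241 and 3 of 6 missed the threshold. In such fits 0 to 1 circles were called. With the SRPBM signal in limma or its library sizes in edgeR, 2 were called, the second being ciRNA16. ciRNA16 changed sign to 0.32 with linear library sizes, 0.0075 without a filter, 1.14 with SRPBM in limma and 1.14 with its library sizes in edgeR, and ranged from -0.18 to 0.29 with 1 library left out. SRPBM implies larger leaf than petiole libraries, the reverse of the linear totals; the cause was not tested. The circle to linear ratio ran from 0.05 to 0.28 for ciRNA14 and from -0.13 to 0.0015 for ciRNA16 with 1 library left out.

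The excess of exon circles in petiole was 9.17 to 15.7 with 1 library left out and 0.333 for circles found in at least 2 libraries. For intron circles the difference was -4.83 to -0.333, and 0.333 for those found in at least 2 libraries. The exon share differed by -2.09 to -1.33 percentage points with 1 library left out, but by 0.346 reads per 1000000 linear counts and by 1.85 points as a share of all back-spliced reads, which counts the block. ciRNA14 counts in the total of both shares. The intron share differed by 11.3 to 14.1 points with 1 library left out. With the total left unchanged, it differed by -8.01 without ciRNA14 and by -1.39 without both top circles. For circles that end short of a listed intron it differed by -1.34.

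Hosts called numbered 99 to 103 higher and 91 to 97 lower with 1 library left out. With limma they were 201 and 41 on log2(FPKM + 1), and 200 and 41 on log2(FPKM + 0.1), where the median of all genes shifted by 0.48 and 0.72; of hosts called, 83.1% and 83.0% were then higher against 52.0% with edgeR. With the replicate block, ciRNA14 changed by 1.34 and 102 hosts were higher and 97 lower, and the block changed no call among the circles. Exact sign flips within the 3 pairs cannot go below p = 0.25. Genes of the same libraries showed no pairing by number (correlations of -0.00203, 0.00562 and -0.000837), so the pairing is not settled and the block serves only as an alternative. Low counts limit the circles, since 280 of 311 rest on 1 library and 60 on 1 read.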

Other observations

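18 circles were found in exactly 2 libraries, and some of these came from both tissues. circRNA586, in cellulose synthase A catalytic subunit 5, which builds the primary wall, had 8 and 11 reads in petiole libraries 1 and 2 and 0 elsewhere. circRNA594, in a mannose-P-dolichol utilization defect 1 homolog, had 7 reads in each of petiole libraries 1 and 3. circRNA11, in the probable lysine-specific demethylase JMJ14, a histone demethylase, had 2 reads in leaf library 1 and 11 in petiole library 3. Exon circles of a pair of 60S ribosomal protein L10 genes were also found in 2 libraries each: circRNA648 in L10-3-like had 9 and 3 reads in petiole libraries 1 and 3, and circRNA572 in L10-1-like had 2 in leaf library 3 and 7 in petiole library 1. These were chosen after their values were seen, and none was tested, since the test asked for reads in at least 3 libraries.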
